A study of Sus scrofa with 12 samples.

Results

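Carnitine is made in the body from trimethyllysine and is joined to acyl groups by a family of acyltransferases, and the genes of these enzymes were examined here in the liver of pigs dosed with pivalate, which is known to be excreted as a carnitine ester. Of 10 genes named for this group, 9 were found on the array by their symbol, that is, 4 of the synthesis enzymes (TMLHE, SHMT2, ALDH9A1, BBOX1) and 5 acyltransferases (CPT1B, CPT1C, CPT2, CRAT, CROT). They stand among 25388 transcript clusters, a transcript cluster being the group of probes that represents 1 gene or locus. The remaining gene, SHMT1, was not found by symbol, and a cluster that RefSeq links to it is described beside the others. CPT1B and CPT1C were found only through the mRNA entry of the annotation, where both are marked as cross-hybridising, so their values are uncertain. Every cluster found in that way here carries the mark, among them the hepatocyte marker TTR. The other 7 of the 9 genes carry a gene symbol and lack the mark. A separate cross-hybridisation code of the annotation was 1 for all 9 genes and does not set CPT1B and CPT1C apart. Of their probes, 25 of 25 matched the mRNA directly for CPT1B and 24 of 25 for CPT1C.

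The 12 pigs were male crossbred animals (Pietrain x (German Landrace x German Edelschwein)), 5 weeks old at the start, and all were fed the same diets low in carnitine and killed 2 h after a meal. For 28 days, the 6 pigs of group PIV received by mouth a daily dose of sodium pivalate of 30 mg/kg body weight dissolved in NaHCO3 solution, and the 6 pigs of group CON received only the solution. Liver RNA of each pig was measured on 1 Affymetrix porcine gene array, and the deposited values are log2 signals from Robust Multichip Analysis (RMA). The pigs were kept in pairs, and no pen or litter is recorded for a pig in the labels, so every p-value takes the pigs as independent. The arrays are numbered group by group, so that the group and the order of the arrays cannot be told apart.

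The liver, the kidney and, depending on the species, the brain finish carnitine synthesis, whereas most other tissues take carnitine up from the blood. Trimethyllysine released from proteins is hydroxylated by TMLHE, split by an aldolase whose activity has been ascribed to serine hydroxymethyltransferase, oxidised by ALDH9A1 to butyrobetaine and hydroxylated by BBOX1 to carnitine. Acyltransferases then exchange acyl groups between CoA and carnitine. CPT1 enzymes do this for long-chain acids at the outer membrane of mitochondria and CPT2 does so in reverse at the inner one, CRAT handles acetyl and other short groups, and CROT handles medium-chain groups in peroxisomes. Pivalate has a branched chain that the body cannot oxidise, and is known to leave in urine as pivaloylcarnitine, a loss that the arrays do not measure. The comparison asks whether enzymes that make or use carnitine differed in expression between pigs given pivalate and pigs given the solution alone.

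None of the 9 genes differed between group PIV and group CON by the filter of the methods. The filter asks for a fold change (FC) above 1.2 in either direction, which is 0.26 on the log2 scale, and an unadjusted p under 0.05, here from limma. It was passed by 0 of the 9 genes and by 462 of 25385 transcripts in all (1.82%, of which 1.03% were higher and 0.788% lower in group PIV). This balance of 262 higher and 200 lower transcripts turned with the scaling, to 194 higher and 266 lower with equal array medians and 218 higher and 216 lower after a further quantile normalization, whereas 0 of the 9 genes passed with either. Among the 11789 transcripts with a log2 signal of at least 5 in 6 pigs, to which 7 of the genes belong, 1.39% passed. An unadjusted p under 0.05 alone was reached by 0 of the 9 genes and by 921 transcripts (3.63%), and with the methods' t-test in place of limma 0 of the 9 genes and 1.18% of all transcripts passed the filter. The groups overlapped for each of the 9 genes, and they did not overlap for 0.158% of all transcripts. After Benjamini-Hochberg adjustment 0 transcripts of the array passed with limma. Of the 9 genes, 6 had a higher mean in group PIV and 3 a lower one, beside 52.3% of all transcripts with a higher mean. The median of their log2 differences, group PIV minus group CON, was 0.06 against 0.01 over all transcripts, and the median size of the difference, whatever its sign, was 0.09 against 0.07. In bulk liver, fewer cells of a type and less RNA per cell cannot be told apart.

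The arrays were alike, with Pearson correlations across transcripts of 0.977 to 0.991 and medians of 4.75 to 4.88. CON pig K22 stood farthest from the other pigs along the main principal component (20.3% of the variance), and limma gave its array the lowest weight, 0.52. Results that rest on it are given with and without it. All 8 hepatocyte markers measured, such as ALB and TTR, had a log2 signal above 10.4 in every pig. Of 36 markers of hepatocytes, skeletal muscle, Kupffer, stellate, bile duct, endothelial and blood cells, 0 passed the filter, beside 1.82% of all transcripts. With so few markers this count is not read as a result. Small differences of markers with little spread do not reach a FC of 1.2. Among the hepatocyte markers, ALB and FGB had the smallest unadjusted p of the exact permutation test and are named for that reason. ALB had a log2 difference of 0.05 (exact permutation test, p = 0.0303, and limma, unadjusted p = 0.407). FGB had a log2 difference of −0.05 (exact permutation test, p = 0.0173, and limma, unadjusted p = 0.407). The mean over the hepatocyte markers lay between 11.97 and 12.09 in group PIV and between 11.88 and 12.05 in group CON.

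**Figure D1:**
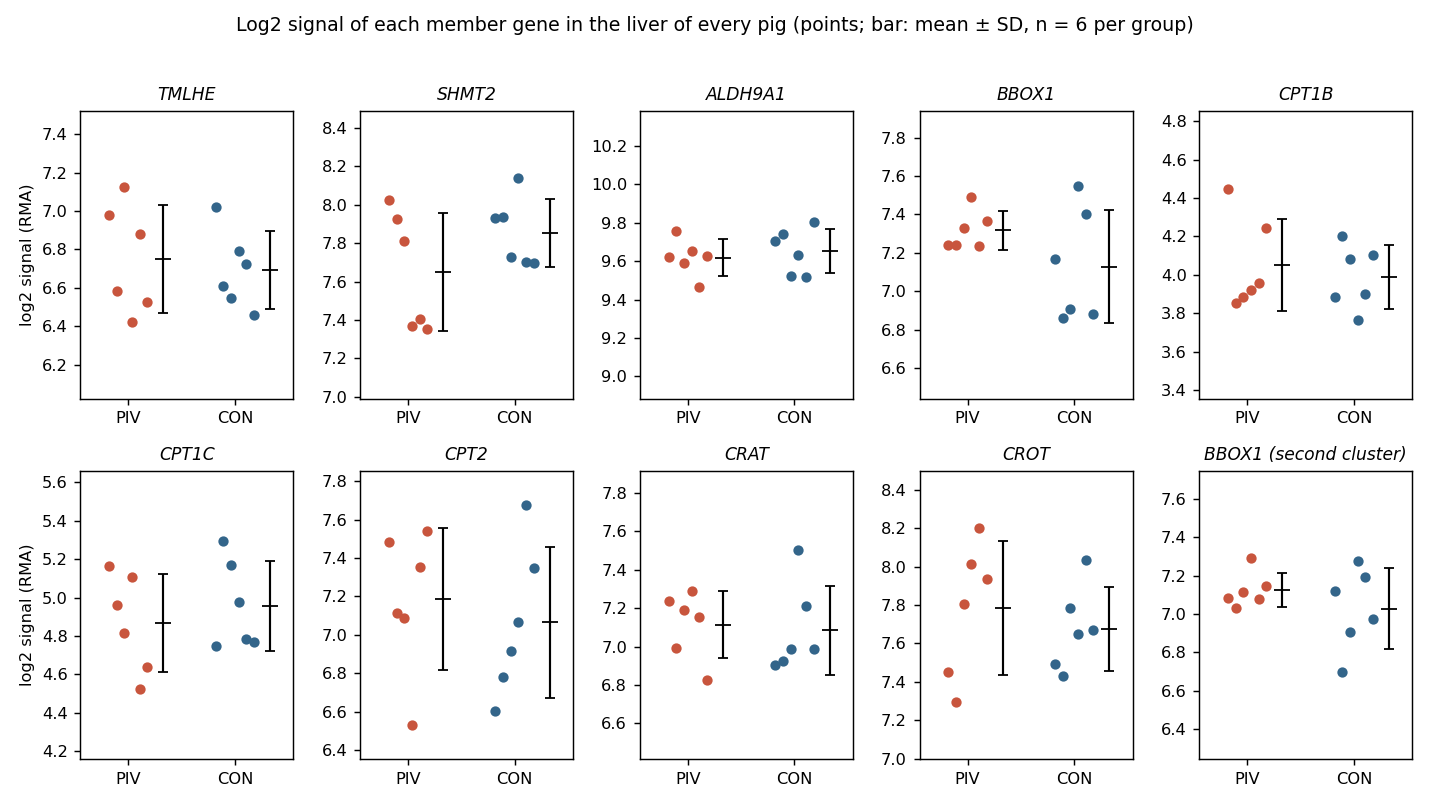
Log2 signal (RMA, vertical axis, each panel spanning the same range of 1.5) of the 9 genes and of the second BBOX1 cluster in each pig, group PIV left and group CON right. Points are pigs and bars are the mean ± SD (n = 6 per group), and the groups overlap in every panel.

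TMLHE, the mitochondrial dioxygenase that hydroxylates trimethyllysine as the opening step of carnitine synthesis, spread over the same range in both groups. In group PIV its log2 signal had a lowest value of 6.42, a median of 6.73 and a highest value of 7.12, against 6.46, 6.67 and 7.02 in group CON. PIV pig P29 was the highest of all pigs and PIV pig P30 the lowest. The means were 6.75 ± 0.28 in group PIV and 6.69 ± 0.20 in group CON (SD, n = 6 each), a log2 difference of 0.06 (SE 0.13, 95% confidence interval −0.21 to 0.33; exact permutation test, two-sided, p = 0.68). The TMLHE cluster has 32 probes and lies on chromosome X from 123183078 to 123252926 in the coordinates of the array annotation. The sources do not name a genome build for these coordinates.

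SHMT2, the mitochondrial serine hydroxymethyltransferase that passes the carbon of serine to folate, had the largest log2 difference in size of the 9 genes. Its values were 7.35 at the lowest, 7.61 at the median and 8.03 at the highest in group PIV, against 7.70, 7.83 and 8.14 in group CON. PIV pigs P30, P31 and P50 lay below every pig of group CON, at 7.37, 7.41 and 7.35, whereas P10, P12 and P29 lay within its range at 8.03, 7.93 and 7.81. Group PIV therefore held 3 pigs under the range of group CON and 3 within it. The means were 7.65 ± 0.31 in group PIV and 7.86 ± 0.18 in group CON (SD, n = 6 each), a log2 difference of −0.21 (SE 0.13, 95% confidence interval −0.48 to 0.07) or a FC of −1.15, and the exact permutation test gave p = 0.169. Without PIV pig P10 the log2 difference was −0.28 (FC −1.22; limma, unadjusted p = 0.0404, lowest adjusted p of all alternatives 0.905), which is past the filter, as were 629 transcripts in that fit. Without K22 it was −0.15. The cluster has 35 probes and spans 21377332 to 21382933 on chromosome 5.

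A cluster for the cytosolic enzyme of the same pair, annotated as LOC397181 and listed by RefSeq as SHMT1, was read beside it although its symbol was not on the array. It had a log2 signal of 6.91 to 7.50 in group PIV and 7.05 to 7.66 in group CON, with a log2 difference of −0.12 (SE 0.12; exact permutation test, p = 0.353). Only 13 of its 25 probes matched the mRNA directly, and the entry is marked as cross-hybridising. SHMT1 is therefore reported as uncertain and is not counted among the 9 genes.

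ALDH9A1, the aldehyde dehydrogenase that forms butyrobetaine, varied least among the pigs. Its log2 signal was 9.47 at the lowest, 9.63 at the median and 9.76 at the highest in group PIV, against 9.52, 9.67 and 9.80 in group CON. The highest and the lowest of all pigs differed by 1.26-fold, and the SD within groups, 0.11, was at percentile 7.37 of all transcripts. The log2 difference of −0.03 (SE 0.08) had a 95% confidence interval of −0.20 to 0.13, the narrowest of the 9 genes (exact permutation test, p = 0.589). ALDH9A1 lies on chromosome 4 from 88466756 to 88494201 and is read by 31 probes.

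BBOX1, the butyrobetaine dioxygenase that completes carnitine synthesis, had the highest positive log2 difference of the 9 genes and a different spread in the groups. In group PIV its values were close together, with 7.24 at the lowest, 7.29 at the median and 7.49 at the highest. Group CON ran from 6.86 over a median of 7.04 to 7.55. CON pigs K3, K42 and K4 lay lowest at 6.86, 6.88 and 6.91, K1 lay at 7.17, and K23 and K22 lay highest at 7.40 and 7.55, so that the range of group CON enclosed all pigs of group PIV. The means were 7.32 ± 0.10 in group PIV and 7.13 ± 0.29 in group CON (SD, n = 6 each), a log2 difference of 0.19 (SE 0.12, 95% confidence interval −0.06 to 0.44) or a FC of 1.14, and the exact permutation test gave p = 0.165. Without CON pig K22 the log2 difference was 0.27 (FC 1.21; limma, unadjusted p = 0.0195, lowest adjusted p of all alternatives 0.92), which is past the filter, as were 560 transcripts in that fit. The difference between the 2 SDs was not tested.

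A second cluster for BBOX1, named through an mRNA entry that is marked as cross-hybridising and built from 25 probes of which 22 match directly, varied among the pigs in much the same way. Its log2 signal was 7.03 to 7.29 in group PIV and 6.70 to 7.28 in group CON, with SDs of 0.09 and 0.21. The log2 difference was 0.10 (SE 0.10; exact permutation test, p = 0.34). After the group means were subtracted, the 2 clusters correlated over the 12 pigs with r = 0.91 (permutation test, p = 0.00036) and rho = 0.93 (permutation test, p = 0.00055), and with r = 0.86 without K22 and K23. The main cluster lies on chromosome 2 from 31263957 to 31302007 and has 23 probes.

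**Figure D2:**
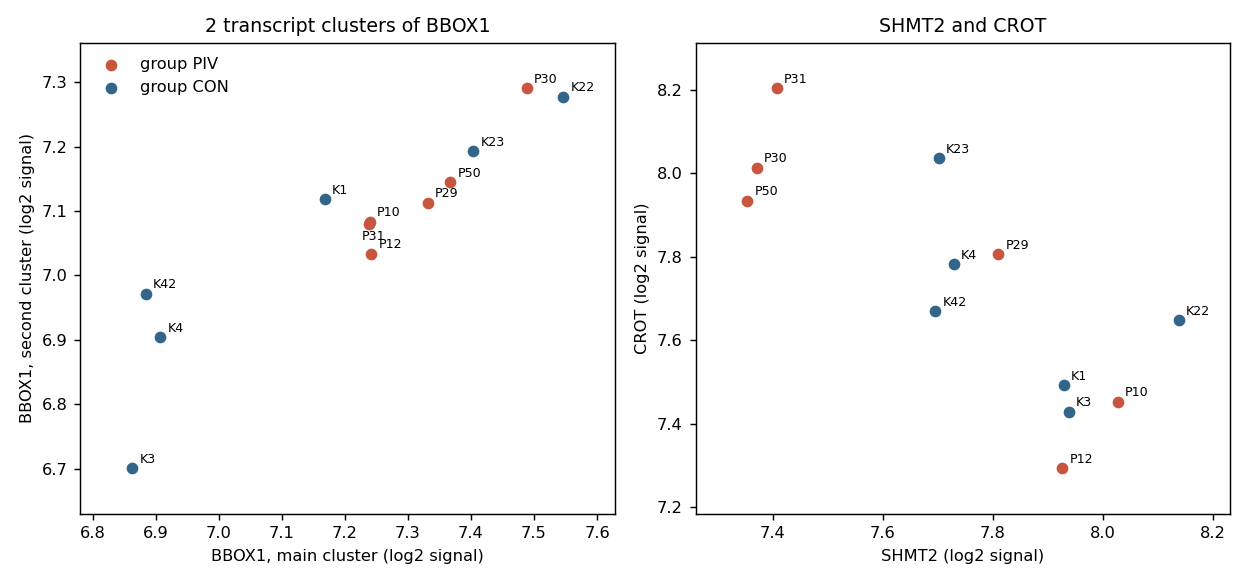
Left, log2 signals of the main BBOX1 cluster (horizontal) and of the second BBOX1 cluster (vertical), and right, log2 signals of SHMT2 (horizontal) and CROT (vertical), 1 point per pig, coloured by group. CON pigs K3, K4 and K42 are low and K22 and K23 high for both BBOX1 clusters, and PIV pigs P30, P31 and P50 combine low SHMT2 with high CROT.

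Among the acyltransferases the muscle-type enzyme CPT1B had a low signal. CPT1B sets the rate of long-chain acid entry into mitochondria of muscle and heart. Its log2 signal stayed under 5 in all 12 pigs, with 3.85 at the lowest, 3.94 at the median and 4.44 at the highest in group PIV, against 3.76, 3.99 and 4.20 in group CON. PIV pigs P10 (4.44) and P50 (4.25) were above every pig of group CON, and the other PIV pigs lay within its range. The log2 difference was 0.06 (SE 0.11; exact permutation test, p = 0.617), and it was −0.02 without P10. Of 7 skeletal muscle markers measured, 5 were also under 5 in every pig and 0 were at 5 or above in all pigs.

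CPT1C, the form known mainly from neurons and bound to the endoplasmic reticulum, with little acyltransferase activity in mouse and human, had signals around the limit of 5. In group PIV the log2 signal was 4.52 at the lowest, 4.89 at the median and 5.16 at the highest, against 4.75, 4.88 and 5.30 in group CON. PIV pigs P31 and P50 were below all CON pigs. The log2 difference was −0.09 (SE 0.13, 95% confidence interval −0.36 to 0.18; exact permutation test, p = 0.537).

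A cluster with the symbol LOC102161205, which the annotation calls liver isoform-like carnitine palmitoyltransferase 1, was read for comparison because the liver uses that form. It was chosen by its name and is outside the 9 genes. Its log2 signal was 5.75 at the lowest, 6.47 at the median and 7.09 at the highest in group PIV, against 6.14, 6.56 and 7.45 in group CON. The pigs differed by up to 3.26-fold, and the SD within groups of 0.50 was above that of 98.7% of all transcripts. The log2 difference of −0.24 had an SE of 0.24 and a 95% confidence interval of −0.75 to 0.27 (exact permutation test, p = 0.418).

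CPT2, which returns long-chain acyl groups from carnitine to CoA inside mitochondria, varied most among the pigs of the 9 genes. Its log2 signal was 6.53 at the lowest, 7.24 at the median and 7.54 at the highest in group PIV, against 6.60, 6.99 and 7.68 in group CON. The lowest pig was P30 and the highest K23, a 2.22-fold range. The SD within groups, 0.38, was above that of 96.1% of all transcripts. The means were 7.19 ± 0.37 in group PIV and 7.07 ± 0.39 in group CON (SD, n = 6 each), a log2 difference of 0.12 (SE 0.19; exact permutation test, p = 0.589). With a 95% confidence interval of −0.28 to 0.51, the data for CPT2 leave room for values from 0.83-fold to 1.43-fold in group PIV relative to group CON, the widest interval of the 9 genes. The CPT2 cluster has 22 probes and spans 112930177 to 112952350 on chromosome 6.

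CRAT, carnitine acetyltransferase, which buffers acetyl-CoA and other short acyl groups with carnitine, had the smallest log2 difference in size. Its values were 6.83 at the lowest, 7.17 at the median and 7.29 at the highest in group PIV, against 6.90, 6.99 and 7.50 in group CON. K22 was the highest pig at 7.50 and P50 the lowest. The log2 difference was 0.03 (SE 0.11, 95% confidence interval −0.21 to 0.27; exact permutation test, p = 0.818), and it was 0.11 without K22. CRAT lies on chromosome 1 from 284061844 to 284075655, with 22 probes.

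CROT, the peroxisomal octanoyltransferase that prepares shortened acids for export to mitochondria, ranged more widely in group PIV. Its log2 signal was 7.29 at the lowest, 7.87 at the median and 8.20 at the highest in group PIV, against 7.43, 7.66 and 8.04 in group CON. P12 and P10 were low at 7.29 and 7.45, the other PIV pigs lay at 7.81 to 8.20, and the groups overlapped. The means were 7.78 ± 0.35 in group PIV and 7.68 ± 0.22 in group CON (SD, n = 6 each), a log2 difference of 0.11 (SE 0.15, 95% confidence interval −0.20 to 0.42; exact permutation test, p = 0.526). CROT lies on chromosome 9 from 86944447 to 86988993 and has 24 probes.

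**Figure D3:**
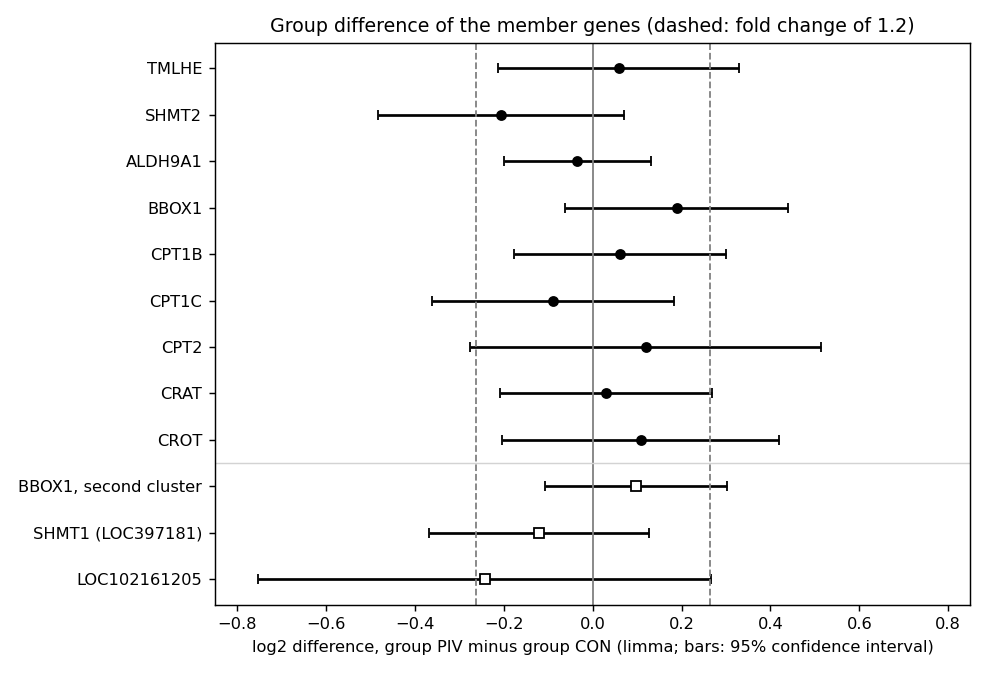
Log2 difference, group PIV minus group CON, with its 95% confidence interval from limma (horizontal axis) for the 9 genes (filled circles) and for 3 further clusters (open squares). All intervals include 0, and SHMT2 at −0.21 and BBOX1 at 0.19 lie farthest from 0 among the 9 genes.

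Across the 9 genes the precision of the log2 difference, as its SE, ran from 0.08 for ALDH9A1 to 0.19 for CPT2. The lowest bound of any 95% confidence interval was 0.72-fold, for SHMT2, and the highest was 1.43-fold, for CPT2. The SD within groups of the 9 genes other than ALDH9A1 lay at percentiles 64.2 to 96.1 of all transcripts. The median SD of the 9 genes was 0.24 against 0.18 over all transcripts and 0.17 over the 11789 with a log2 signal of at least 5 in 6 pigs.

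After the group means were subtracted, Pearson's r between the genes ran from −0.80 to 0.68 over the 12 pigs. Of 36 pairs of the 9 genes, 4 had a permutation p under 0.05 for this r, and 0 passed after Benjamini-Hochberg adjustment. Whether the 9 genes vary together as a block was not tested. The most negative correlation was that of SHMT2 and CROT, with r = −0.80 over the 12 pigs (permutation test, p = 0.00677, adjusted p = 0.137) and rho = −0.78 (permutation test, p = 0.0115). It was −0.83 without P10 and K22, −0.88 within group PIV and −0.57 within group CON. ALDH9A1 and CROT had r = −0.71 (permutation test, p = 0.00761, adjusted p = 0.137) and rho = −0.64 (permutation test, p = 0.0256), which was −0.74 without P31 and K42, −0.76 within group PIV and −0.73 within group CON. BBOX1 and CRAT had r = 0.68 (permutation test, p = 0.0273, adjusted p = 0.251) and rho = 0.45 (permutation test, p = 0.179). It was 0.15 within group PIV and 0.85 within group CON. Without K22 and K23 this r was 0.30, so the relation rests on those pigs, which had the highest BBOX1 signals of group CON. BBOX1 and CPT1B had r = −0.56 (permutation test, p = 0.0279, adjusted p = 0.251) and rho = −0.55 (permutation test, p = 0.062), at −0.43 without K22 and K23, −0.19 within group PIV and −0.94 within group CON. The differences in r between the groups were not tested.

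**Figure D4:**
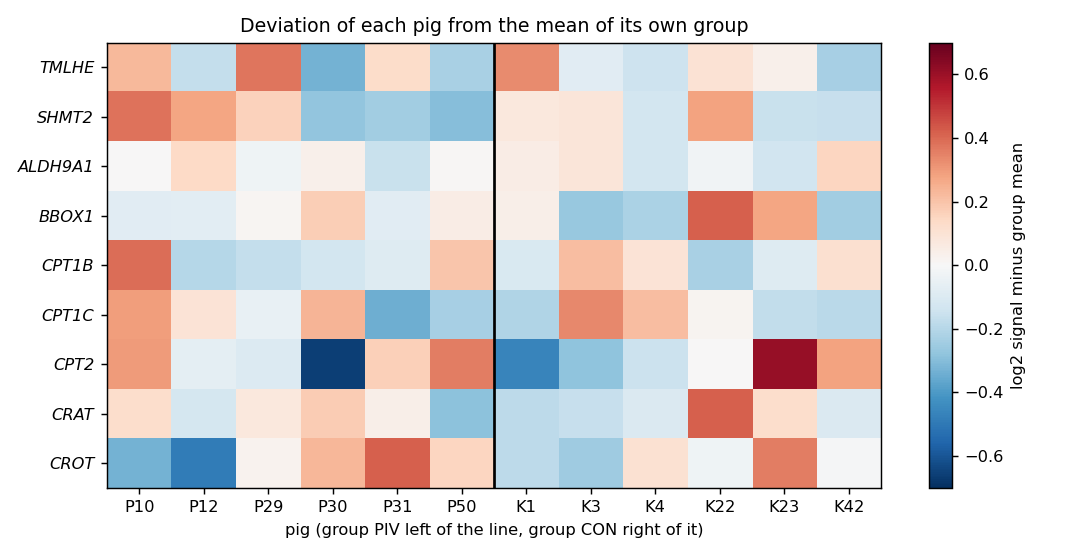
Deviation of the log2 signal of each pig (columns, group PIV left of the line and group CON right of it) from the mean of its own group, for the 9 genes (rows). CPT2 shows the strongest colours, with P30 low and K23 high, and no pig is high or low for all genes.

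For the 3 of the 9 genes with the largest SD within groups, the genes whose pattern over the 12 pigs was most alike were sought among 7150 other clusters with 1 gene symbol and a mean log2 signal of at least 5. After the group means were subtracted, CPT2 was most like ACOT4, a peroxisomal acyl-CoA thioesterase (r = 0.84), followed by LOC102164939 (r = 0.82) and FYCO1, an adaptor for the transport of autophagosomes (r = 0.81). CROT was most like CA3, a carbonic anhydrase (r = 0.92), ADPRHL2, which removes ADP-ribose from proteins (r = 0.91), and DAAM1, a formin of the actin cytoskeleton (r = 0.86). SHMT2 was most like the ribosomal protein genes RPL4 (r = 0.91) and RPL12 (r = 0.90) and PPIF, the mitochondrial cyclophilin (r = 0.90). These were the highest correlations among all 7150 clusters, all are on the same arrays, and the values are a description without a test.

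Around these enzymes lie genes that carry carnitine, feed the acyltransferases or take over their products, of which 39 of 44 on a list were found. The filter was passed by 3 of the 39, of which 2 were higher and 1 lower in group PIV, beside 462 of all 25385 transcripts (1.82%). With so few genes in each list, 1 call is not read as a difference of the list from the array. Their median log2 difference was 0.04 against 0.01 over all transcripts. Of 10 enzymes of mitochondrial beta-oxidation, 0 passed the filter. The smallest limma p belonged to ACADM, the medium-chain acyl-CoA dehydrogenase (limma, unadjusted p = 0.128). ACADM was at 9.95 ± 0.09 in group PIV and 10.08 ± 0.11 in group CON (SD, n = 6 each). Its log2 difference was −0.12 (SE 0.08, exact permutation test, p = 0.0649).

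Of 7 carnitine transporters 1 passed the filter (1.82% of all transcripts), SLC22A5, which encodes OCTN2, the carrier that takes carnitine into cells. Its log2 signal was 4.34 at the lowest, 4.77 at the median and 5.04 at the highest in group PIV, against 4.83, 5.02 and 5.34 in group CON, and 5 PIV pigs were below every CON pig. The log2 difference was −0.31 (SE 0.11, FC −1.24; limma, adjusted p = 1.00; exact permutation test, p = 0.0173). The cluster has only 8 probes and reached 5 in only 4 pigs, and it missed the filter without CON pig K1 (log2 difference −0.26) and without PIV pig P29 (−0.23).

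Of 12 other genes of the acyltransferase family, its substrates' activation and its regulation, 1 passed (1.82% of all transcripts), CHAT, choline acetyltransferase, a relative of the carnitine acyltransferases that is known for making acetylcholine in neurons. It had a log2 signal of 3.56 to 3.91 in group PIV and 3.22 to 3.59 in group CON (log2 difference 0.32, SE 0.09, FC 1.25; limma, adjusted p = 1.00; exact permutation test, p = 0.00433), and 5 PIV pigs were above all CON pigs. The signal was under 5 in every pig. Of 10 peroxisomal partners of CRAT and CROT, 1 passed (again beside 1.82%), ABCD3, the carrier for long-chain and branched acyl-CoA into peroxisomes, at 7.57 ± 0.26 in group PIV and 7.23 ± 0.29 in group CON (SD, n = 6 each; log2 difference 0.33, SE 0.14, FC 1.26; exact permutation test, p = 0.0584). ABCD3 missed the filter when the methods' t-test was used and in 5 of 12 fits that left out 1 pig (K4, K42, P29, P30 or P31; log2 differences of 0.24 to 0.32), and its cluster was named through an mRNA entry marked as cross-hybridising, so that its values are uncertain.

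**Figure D5:**
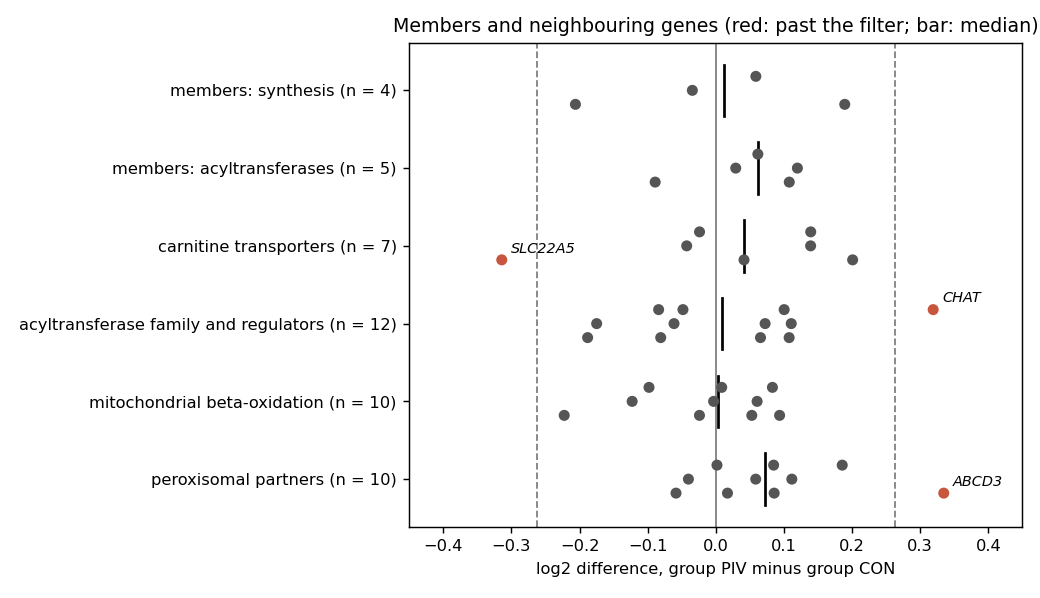
Log2 difference, group PIV minus group CON (horizontal axis), of the 9 genes and of 39 neighbouring genes (points, by list), with the median of each list as a bar and dashed lines at a FC of 1.2. None of the 9 genes is past the filter, whereas SLC22A5 at −0.31, CHAT at 0.32 and ABCD3 at 0.33 are.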

How the data were processed

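Liver RNA of 12 pigs was hybridised to 1 Affymetrix Porcine Gene 1.0 ST array each. Per the labels and the study's methods, the authors used RMA in Expression Console 1.4 for background correction, normalization across all arrays and summary per transcript cluster. The deposited values are log2 signals, in a workbook sheet and in the value table of the series, which agree within 0.0050. Further columns of the sheet hold group means and the authors' comparison columns (ratios, fold changes and p-values), which were not used. Differences between probes of a cluster are no longer visible in such summaries, and another background correction could not be tried. The number of arrays limits the precision.

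Genes were found in the gene symbol column and otherwise by the symbol in the mRNA entry, and the cluster with the highest mean was used where a gene had several. For the gene lists, 2321 cluster names of the form LOC were looked up by gene identifier in RefSeq (Sscrofa11.1). Ribosomal RNA (3 clusters) was not tested. The groups were compared by limma 3.58.1 (lmFit, eBayes; R 4.3.3) over 25385 clusters, with Benjamini-Hochberg adjustment over all of them, and SE and confidence intervals come from that fit. An exact permutation test, two-sided and unadjusted, was run for single genes, and 0.00216 is the smallest p that it can give. Correlations used 100000 permutations within groups.

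All genes of the group were described with all their clusters, together with the listed neighbours past the filter (where a list had none, its gene with the smallest p) and the 3 most alike genes of the 3 most variable ones. Members and lists were chosen with earlier results of these data known, and the SHMT1 and LOC102161205 clusters were added by their names. The script was tested on simulated data for this comparison. There, 96 of 100 clusters changed by a log2 of 0.5 passed the filter, as did 610 of 25185 unchanged clusters. Clusters with the largest SDs within groups were left out of the draw of changed clusters, and the simulated counts were not split by that SD. A spread such as that of CPT2, at percentile 96.1 of all transcripts, lay outside the draw. The 96 of 100 is therefore no detection rate for such genes. Tried in turn were the methods' t-test, robust estimation with a variance trend, array weights, a filter at a log2 signal of 5, repeated quantile normalization, equal medians of the arrays, the value table, 1 cluster per symbol, linear means, a FC of 1.1, an adjusted p and the omission of each pig. Protein sequences were not used here.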

Additional observations from a re-analysis of the deposited data

How the results depend on the processing

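The count of 0 of the 9 genes past the filter was the same with each of the 11 settings other than leaving out a pig. Some of these settings could not have changed it. A FC above 1.1 and linear means kept the p of the main fit, whose lowest value for the 9 genes was 0.129 (limma, unadjusted). An adjusted p under 0.05 was reached by 0 transcripts of the whole array. When 1 pig was left out the count was 0 to 1, with BBOX1 passing without CON pig K22 and SHMT2 without PIV pig P10. The log2 difference turned in sign when 1 pig was left out for TMLHE (−0.016 to 0.12, turned without P29), CPT1B (−0.017 to 0.10, without P10) and CRAT (−0.0076 to 0.11, without K1, K3 or P30), and it kept its sign in all 12 such fits for the other 6 genes. Their sizes still moved, for CPT2 to 0.03 without K1 and 0.25 without P30, for CROT to 0.02 without P31 and 0.21 without P12, for CPT1C to −0.02 without P31 and −0.15 without P10, for ALDH9A1 to −0.0038 without P31 and −0.06 without P12, and for BBOX1 and SHMT2 within 0.14 to 0.27 and −0.28 to −0.15. No gene of the 9 turned in sign with equal array medians, with quantile normalization or with any other setting. CPT1B and CPT1C had no value with the minimum log2 signal of 5, where they were removed. Of the neighbouring genes 3 passed the filter, 1 to 4 when 1 pig was left out, with 1 without P29, and 1 of 28 with the minimum log2 signal of 5, which removes SLC22A5 and CHAT. The number of correlated pairs after adjustment was 0 also without subtracting the group means and with equal medians. No paired analysis was possible because the labels give no number or pen shared between groups. The precision with 6 pigs per group is given by the confidence intervals above, and no detection value of the dim clusters such as CPT1B was used.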

Other observations

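The liver-type CPT1 cluster LOC102161205 and CROT moved in opposite directions from pig to pig within both groups. This pair was chosen after the values were seen, among 18 pairs of the 9 genes with LOC102161205 or the SHMT1 cluster. The adjustment over these 18 pairs does not cover that choice or the 36 pairs among the 9 genes. After the group means were subtracted, r was −0.89 over the 12 pigs (permutation test, p = 6.0e-05, adjusted over the 18 pairs p = 0.0011) and rho −0.80 (permutation test, p = 0.0017, adjusted p = 0.031), and r was −0.89 without P12 and P31. It was −0.95 within group PIV and −0.89 within group CON. PIV pigs P10 and P12 and CON pigs K1 and K3 had the highest LOC102161205 signals (6.95 to 7.45) and the lowest CROT signals (7.29 to 7.49). PIV pig P31 had the lowest LOC102161205 signal (5.75) and the highest CROT signal (8.20). Of the other 17 pairs 0 passed after adjustment. CPT1 acts on long-chain acids at mitochondria and CROT on medium-chain acids in peroxisomes, and neither gene differed between the groups by the filter.

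Single pigs set the ends of the range for several of the 9 genes. In group PIV, P10 was the highest pig of its group for 3 genes and P31 the lowest for 3. In group CON, K22 was the highest for 3 genes and K1 the lowest for 3. P30 and K3 were each the highest of their group for 2 genes and the lowest for 2.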
